A study of Mus musculus with 4 samples.

Results

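The glucocorticoid receptor gene Nr3c1 and 9 genes known to be switched on by the receptor were compared between differentiating leukemic and normal mouse erythroid cells. The 10 genes were chosen by name, and every feature of the array annotated to exactly 1 of them was taken. Each gene had 1 such feature, so 10 features of the 28944 tested, and 10 of the 19938 genes with a feature of their own, are described.

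Glucocorticoids are steroid hormones that cross the cell membrane and bind a receptor held in the cytoplasm by the HSP90 chaperone machinery. The bound receptor moves to the nucleus, binds glucocorticoid response elements as a dimer and raises transcription of target genes, while it restrains inflammatory genes through other transcription factors. In erythroid progenitors, glucocorticoids together with stem cell factor and erythropoietin hold the cells in renewing divisions, and removing or blocking the hormone lets them mature. Dexamethasone is a synthetic glucocorticoid that activates the receptor, and mifepristone is an antagonist that occupies it.

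RNA from 4 cultures, 2 per group and lettered A and B, was hybridised to Affymetrix Mouse Gene 1.0 ST arrays, 1 per culture. MEL is an erythroleukemia line, grown in DMEM with serum and puromycin and differentiated with 17b-estradiol for 48 hours, and no dexamethasone or mifepristone is named for it. The labels do not say what makes these MEL cells respond to estradiol, or whether the line is a single clone. ES-EP cells are erythroid progenitors derived from embryonic stem cells, expanded in StemPro34 with Epogen, hIGF-1, dexamethasone and murine SCF. For the arrays they were differentiated for 24 hours in the same base medium with more Epogen, insulin and mifepristone, with dexamethasone, hIGF-1 and SCF not listed among the additions. Cell line, inducer, hormone, medium and hours therefore differ together and cannot be told apart. Cultures still in dexamethasone were not analysed here, so the data hold no change from dexamethasone to mifepristone, only the level reached in each system.

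The values are log2 expression values made by the authors with RMA, and a difference of 1 is a 2-fold difference. Duplicates correlated with r = 0.997 for MEL and 0.998 for ES-EP across features, against 0.948 to 0.949 between the groups. The array medians lay between 5.78 and 5.91, and the table has no detection calls, so values near these medians or below them were not told from background. Of the erythroid markers 8 were measured, with list medians of 11.06 and 11.07 for the MEL arrays against 11.84 and 11.85 for the ES-EP arrays. Of these 2 were higher in MEL, Gata1 (1.37-fold) and Epor (1.34-fold), and 6 lower, against 21.8% and 36.9% of all genes. Among the 6, the maturation genes Slc4a1 and Alas2 were 43.4-fold and 2.51-fold lower. The part of maturation in the members' differences was not tested. Over all genes the difference of MEL minus ES-EP had a median of -0.14, which was -0.02 after quantile normalization, -0.07 after median centring and 0.02 after cyclic loess, so small differences are also given relative to it. Nothing in the labels says when or from how many thaws the duplicates were grown, so p-values measure no spread beyond these cultures. Each gene's spread was moderated toward that of all features (5.15 prior against 2 residual degrees of freedom). Each SE printed for a difference is moderated in this way.

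Sequences upstream of the members' start sites are shown because the receptor acts through response elements in DNA. For 7 of the 10 genes, entries of the RefSeq promoter table (GRCm38.p6) were searched. They had 16 start sites in all, each covering 250 bases before to 50 after the start. These genes are Tsc22d3, Fkbp5, Per1, Dusp1, Sgk1, Zfp36 and Errfi1. Promoters of Nr3c1, Zfp36l2 and Zbtb16 are not reported here. Both strands were searched for the palindromic glucocorticoid response element, which is AGAACA and TGTTCT separated by any 3 bases, for the hexamer AGAACA alone (which the palindrome contains on each strand), the cyclic AMP response element TGACGTCA and the CArG box, the site of serum response factor. The stretches with a palindrome, a cyclic AMP element or a CArG box are printed with the match in capitals and up to 50 bases on each side, ending before the start.
Sgk1 (chr10:21993651-21993765, plus strand, 1 of 6 start sites, palindromic response element in capitals): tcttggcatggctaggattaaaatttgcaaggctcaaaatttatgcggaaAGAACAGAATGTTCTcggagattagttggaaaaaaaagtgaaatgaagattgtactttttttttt
Dusp1 (chr17:26508558-26508665, minus strand, cyclic AMP response element in capitals): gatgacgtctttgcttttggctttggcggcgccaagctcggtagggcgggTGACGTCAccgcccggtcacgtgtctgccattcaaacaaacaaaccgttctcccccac
Errfi1 (chr4:150854969-150855069, plus strand, 1 of 2 start sites, cyclic AMP response element in capitals): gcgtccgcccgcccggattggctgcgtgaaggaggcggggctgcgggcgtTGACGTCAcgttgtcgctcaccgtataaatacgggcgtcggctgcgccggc
Zfp36 (chr7:28379229-28379336, minus strand, CArG box in capitals): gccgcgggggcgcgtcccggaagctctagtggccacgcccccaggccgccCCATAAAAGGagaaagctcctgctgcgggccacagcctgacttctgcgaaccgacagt

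The Sgk1 match AGAACAGAATGTTCT begins 189 bases before that start site. The palindrome with any 3 bases between its parts was found in 3 of 32851 promoters of the table, 0.00913%, this Sgk1 promoter included. The hexamer was found in 4 of the 16 searched promoters of members, 3 of Sgk1 and 1 of Tsc22d3, against 19% of all promoters. The cyclic AMP element was in 1.79% and the CArG box in 1.63% of all promoters. These are matches of letters in short windows of the reference sequence. They say nothing of binding in these cells.

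The members split in direction. At an adjusted p under 0.05, Errfi1, Zfp36l2, Per1 and Sgk1 were higher in MEL, and Dusp1, Zfp36 and Tsc22d3 were lower, while Nr3c1, Fkbp5 and Zbtb16 did not pass. These counts of 4 higher and 3 lower of 10 stand against a background of 19.1% of all features higher and 37.4% lower, 56.5% in either direction. All 10 members lay at or above the median signal, where 69.2% of features were called, with 34.7% of genes higher and 37.1% lower. Beside those shares, 7 called of 10 is not set apart. With at least a 2-fold difference 1 member was higher (Errfi1) and 3 were lower (Dusp1, Zfp36, Tsc22d3), against 6.27% and 5.17% of all features. The share of all calls that were higher in MEL was 33.8% as deposited and 51.9% after cyclic loess. The members' median difference was 0.17, or 0.30 relative to all genes. Without ES-EP culture A, which leaves 1 ES-EP array, Per1 and Sgk1 no longer passed.

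**Figure D1:**
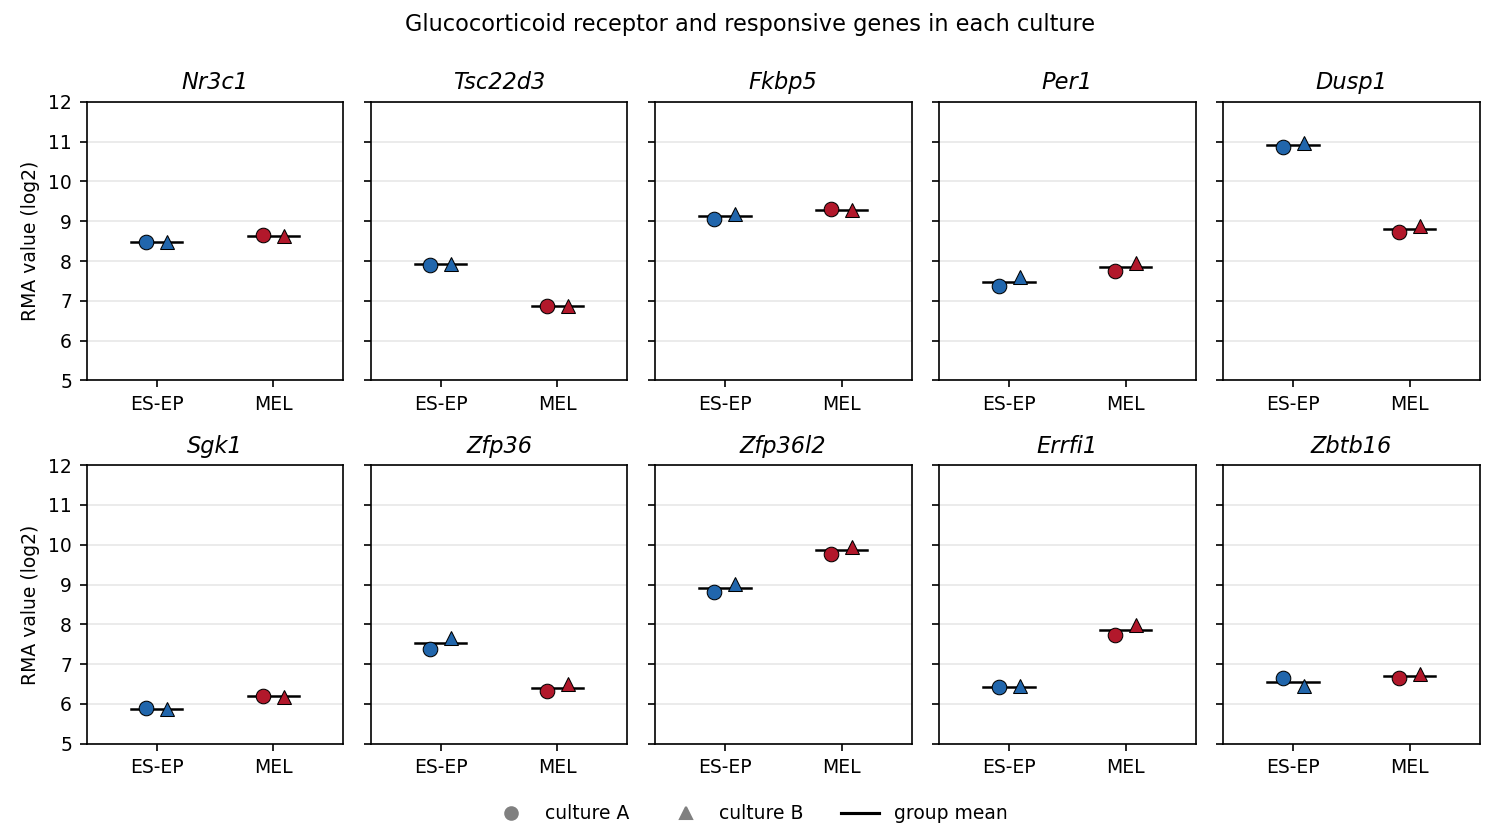
Each panel plots 1 gene, with the RMA value on a log2 scale on the vertical axis, ES-EP cultures in blue and MEL cultures in red, circles for culture A, triangles for culture B and a bar at the group mean (n = 2). The wide gap of Dusp1, at 10.86 and 10.97 in ES-EP against 8.72 and 8.89 in MEL cells, contrasts with the close values of Nr3c1.

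The receptor itself was measured at nearly the same level in both systems. Nr3c1 (feature 10458569) was at 8.66 and 8.62 in the MEL cultures and at 8.47 and 8.49 in the ES-EP cultures. The groups did not overlap, which was also so for 79.4% of all features, and both duplicates lay close together. The difference of 0.16 ± 0.08 (SE, n = 2 per group) had a 95% interval of -0.03 to 0.35 and did not pass (limma, adjusted p = 0.138). It was 0.30 relative to all genes, and after cyclic loess it was 0.24 and passed (adjusted p = 0.0416). A 2-fold difference of receptor mRNA lies outside this interval. The array does not measure receptor protein or its binding of hormone.

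Dusp1 showed the widest gap of the members. It encodes a phosphatase that switches off p38, JNK and ERK kinases and carries part of the anti-inflammatory action of glucocorticoids. Dusp1 (feature 10449284) was at 8.72 and 8.89 in MEL and at 10.86 and 10.97 in ES-EP cells. Both ES-EP cultures were high and the groups were far apart. The level was 4.32-fold lower in MEL (-2.11 ± 0.10, SE, n = 2 per group, adjusted p = 2.85e-06), and 2.65% of all features differed at least as far in either direction.

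Tsc22d3, which encodes GILZ, a leucine zipper protein that binds NF-kappaB and AP-1 and is induced by the receptor in many cell types, was lower in MEL as well. Tsc22d3 (feature 10606989) was at 6.86 and 6.87 in MEL and at 7.91 and 7.93 in ES-EP cells. Each pair was nearly identical, and the ES-EP pair was the higher, with the MEL pair about 1 above the array medians. The level was 2.08-fold lower in MEL (-1.06 ± 0.08, SE, adjusted p = 3.68e-05), or -0.92 relative to all genes.

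Fkbp5 encodes FKBP51, a co-chaperone that lowers the hormone affinity of the receptor and closes a feedback loop, since its gene is induced by the receptor. Fkbp5 (feature 10449452) was at 9.30 and 9.29 in MEL and at 9.06 and 9.18 in ES-EP cells. The MEL values were slightly above both ES-EP values. The difference of 0.17 (95% interval -0.03 to 0.38) did not pass on the deposited values (adjusted p = 0.121). It passed after quantile normalization, at 0.24 (adjusted p = 0.0419), and after cyclic loess, at 0.28 (adjusted p = 0.0306).

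Errfi1 showed the widest gap in the other direction. It encodes MIG6, an inhibitor of the EGF receptor family. Errfi1 (feature 10510574) was at 7.72 and 7.99 in MEL and at 6.42 and 6.45 in ES-EP cells. The MEL cultures were both high, they differed more from each other than the ES-EP cultures did, and the ES-EP values lay less than 1 above the array medians. The level was 2.68-fold higher in MEL (1.42 ± 0.11, SE, adjusted p = 3.7e-05), and 5.93% of all features differed at least as far.

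Per1 and Sgk1 were slightly higher in MEL, with calls lost when single cultures were left out. Per1, a repressor in the circadian clock whose gene responds directly to glucocorticoids, (feature 10377439) was at 7.75 and 7.95 in MEL and at 7.36 and 7.59 in ES-EP cells. Culture B was the higher in both groups, and the groups were separated by less than the gap within each. The difference was 0.38 ± 0.11 (SE, adjusted p = 0.0261). It fell to 0.28 without MEL culture B and to 0.26 without ES-EP culture A, and the call was lost. After quantile normalization it was 0.27 (adjusted p = 0.0649). With the array's control features kept in the test, the same 0.38 no longer passed (adjusted p = 0.0651).

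Sgk1 encodes a kinase that raises sodium transport and cell survival downstream of insulin and steroid signals. Sgk1 (feature 10362073), whose promoter carries the palindrome printed above, was at 6.19 and 6.18 in MEL and at 5.89 and 5.87 in ES-EP cells. All 4 values lay near the array medians of 5.78 to 5.91, so whether the gene was expressed was not settled. The difference was 0.30 ± 0.08 (SE, adjusted p = 0.0148), or 0.44 relative to all genes. The value was nearly the same without ES-EP culture A, at 0.31, and without culture B, at 0.29, but the call was lost in both cases (adjusted p = 0.0848 and 0.103).

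Zbtb16 encodes PLZF, a zinc finger repressor that is strongly induced by glucocorticoids in many cells. Zbtb16 (feature 10593225) was at 6.65 and 6.74 in MEL and at 6.65 and 6.44 in ES-EP cells. The A cultures of both groups had the same value to 2 decimals, and ES-EP culture B was the lowest. The difference of 0.15 (95% interval -0.09 to 0.38) did not pass (adjusted p = 0.24), and it was -0.01 after quantile normalization.

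The mRNA decay factors Zfp36 and Zfp36l2 went in opposite directions. Both belong to a family of CCCH zinc finger proteins that bind AU-rich elements in mRNA tails and speed their breakdown. Zfp36, or tristetraprolin, acts on inflammatory mRNAs such as that of TNF, and Zfp36l2 is known as a glucocorticoid target needed for the self-renewal of early erythroid progenitors. Zfp36 (feature 10561453) was at 6.33 and 6.49 in MEL and at 7.39 and 7.65 in ES-EP cells. Both ES-EP cultures were higher than both MEL cultures by more than the gaps within the pairs, and the MEL values lay less than 1 above the array medians. The level was 2.16-fold lower in MEL (-1.11 ± 0.11, SE, adjusted p = 0.000163). Zfp36l2 (feature 10453272) was at 9.77 and 9.95 in MEL and at 8.80 and 9.01 in ES-EP cells. Here both MEL cultures were the higher. The level was 1.94-fold higher in MEL (0.95 ± 0.11, SE, adjusted p = 0.000264). Zfp36l1, the third measured member of this family, was 2.03-fold lower (-1.02 ± 0.09, SE, adjusted p = 6.88e-05), at 6.95 ± 0.06 in MEL against 7.97 ± 0.07 in the ES-EP cultures (SD, n = 2). These 3 directions and calls held under all 3 other scalings and without each culture in turn.

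**Figure D2:**
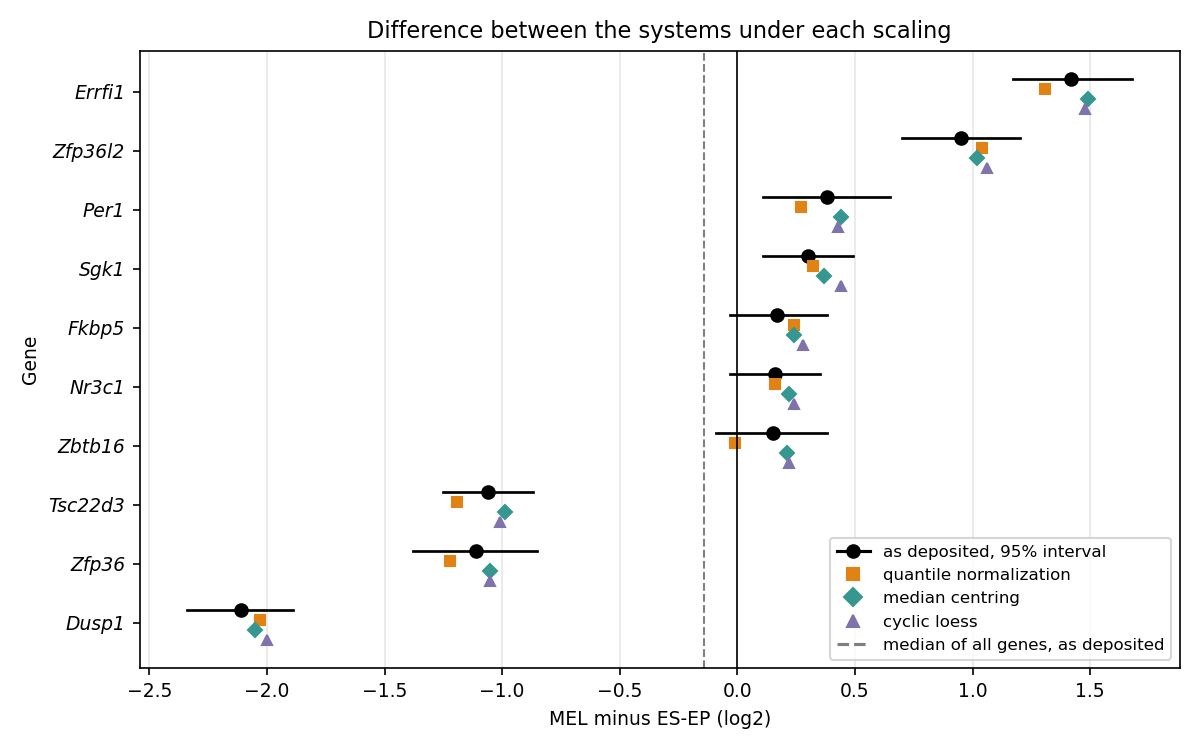
The horizontal axis gives the difference of MEL minus ES-EP on the log2 scale for each gene, as deposited with its 95% interval (black) and after 3 other scalings (coloured), with a dashed line at the median of all genes. Dusp1, Zfp36, Tsc22d3, Errfi1 and Zfp36l2 stay far from 0 under each scaling, and Zbtb16 moves from 0.15 to -0.01 after quantile normalization.

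Relatives of the members by protein family were set beside them. On the list of 26 relatives 8 were higher and 10 lower in MEL, against 21.8% and 36.9% of all genes, and their median was -0.04, which turned positive after each of the other scalings. The TSC22 family was lower throughout, with all 4 measured genes passing under every scaling. Tsc22d1 was 2.19-fold lower, at 7.26 ± 0.12 in MEL against 8.40 ± 0.04 in the ES-EP cultures (SD, n = 2, adjusted p = 5.49e-05), and Tsc22d2 and Tsc22d4 differed by -0.69 and -0.46. The clock genes were mixed, beside the slight difference of Per1. Per2 was 1.44-fold lower (-0.53 ± 0.10, SE, adjusted p = 0.00324) and Per3 1.78-fold higher than in ES-EP cells. The ES-EP values of Per3, 6.31 and 6.01, lay near the array medians.

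Of 9 dual specificity phosphatase genes, 4 were higher, 3 were lower and 2 did not pass, against 21.8% higher and 36.9% lower of all genes. Dusp8, which acts on JNK and p38, shared the direction of Dusp1 and was 3.59-fold lower, and its dimmer second feature differed by -2.41. Dusp10, which acts on the same kinases, was 3.96-fold higher, at 7.57 ± 0.08 in MEL against 5.58 ± 0.23 in the ES-EP cultures (SD, n = 2). Dusp6 and Dusp7, which act on ERK as Dusp1 does, were 2.38-fold and 2.03-fold higher, while Dusp1 was lower. Of the rest, Dusp5 differed by 0.93 and Dusp16 by -0.45, and Dusp2 and Dusp4 did not pass (0.10 and -0.15). The ES-EP values of Dusp10 and Dusp6 lay below the array medians, so these folds are against a level not told from background. The SGK kinases diverged as well, since Sgk3 was 3.35-fold lower in MEL (-1.74 ± 0.08, SE, adjusted p = 3.25e-06) where Sgk1 was slightly higher. Among 7 FK506 binding protein genes, Fkbp5 included, 1 was higher and 2 were lower, against the same shares of all genes. Fkbp4, the co-chaperone FKBP52 that opposes FKBP51 on the receptor, differed by -0.04 (adjusted p = 0.677), a sign that turned after each of the other scalings. Fkbp1a, the target of the drug FK506, was 2.04-fold higher in MEL.

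**Figure D3:**
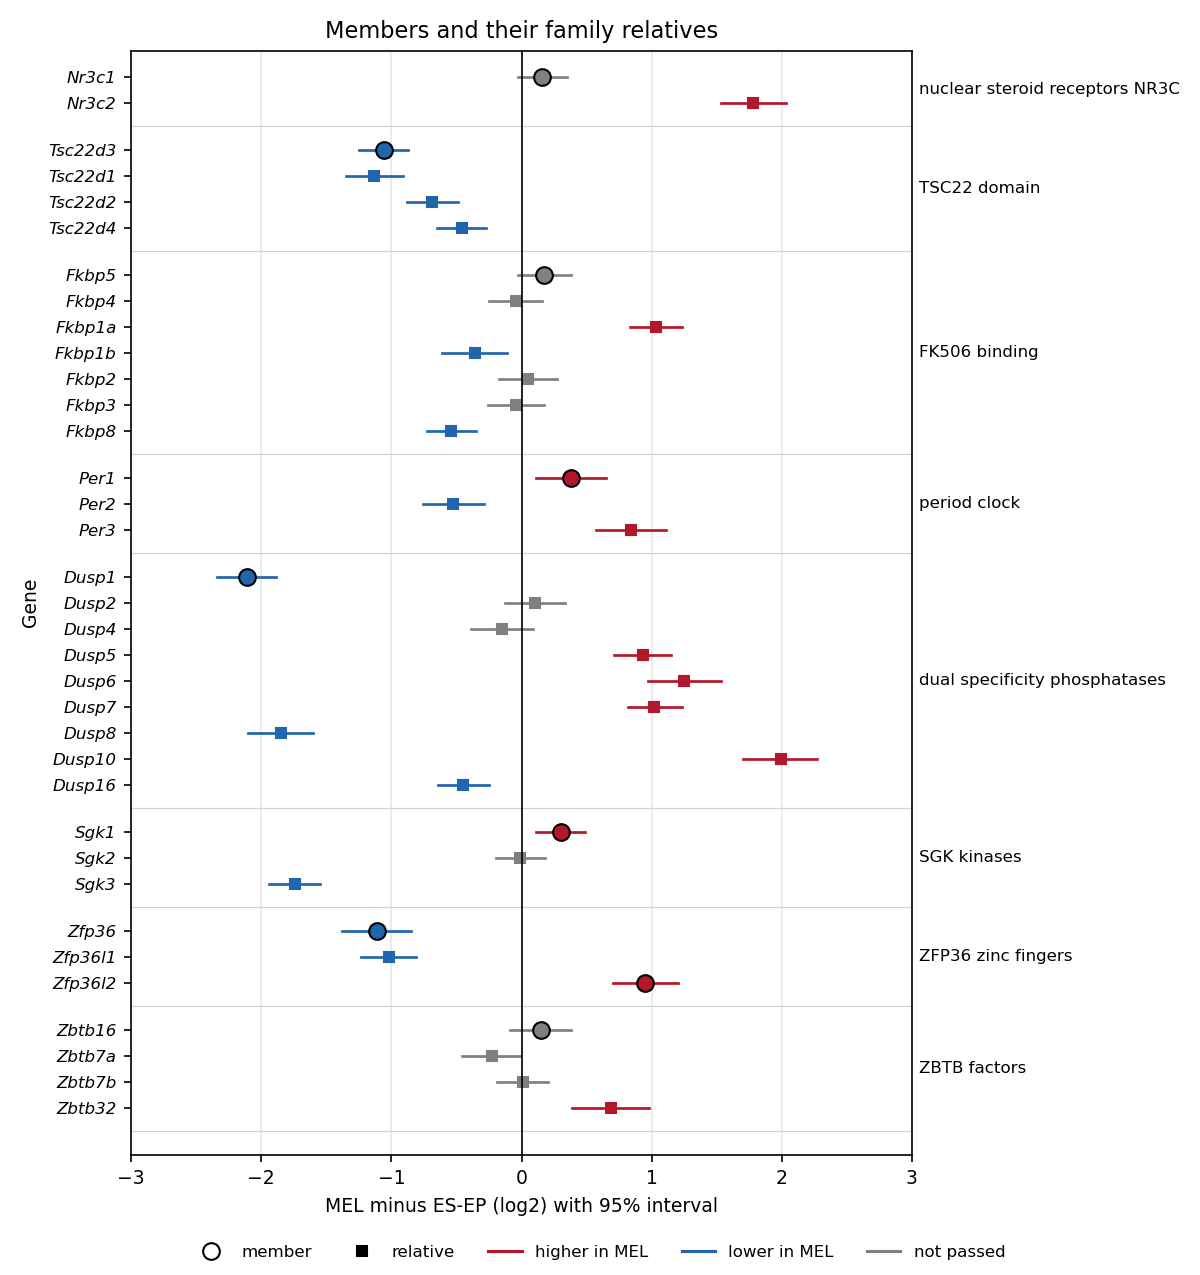
The horizontal axis gives MEL minus ES-EP on the log2 scale with its 95% interval, for the members (large circles) and their relatives (squares), grouped by family, with red for higher in MEL, blue for lower and grey for not passed. All 4 TSC22 genes lie to the left, while the ZFP36, SGK and phosphatase families hold genes on both sides.

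Partners of the receptor were measured next, as a list of 16 genes for chaperones and for the handling of the hormone, of which 15 had a feature of their own. Of these 5 were higher and 3 lower, against 21.8% and 36.9% of all genes, with a median of -0.02. That median turned positive after each of the other scalings, and the lower count was 1 after median centring or without ES-EP culture B, and 6 with an intensity trend in the prior. Abcb1a, a drug pump that exports dexamethasone and other steroids, was at 8.29 and 8.53 in MEL and at 4.79 and 4.68 in ES-EP cells, which was 12.8-fold higher in MEL (adjusted p = 3.84e-07). Its ES-EP values lay below the array medians, so this fold is against a level not told from background. Nr3c2, the mineralocorticoid receptor, which binds natural glucocorticoids too, was at 6.34 and 6.42 in MEL and at 4.48 and 4.72 in ES-EP cells, 3.44-fold higher (1.78 ± 0.10, SE, adjusted p = 1.05e-05). Its MEL values were above the array medians and its ES-EP values below, with the same limit on the fold.

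The chaperone Hsp90aa1 was 1.25-fold lower in MEL (-0.33 ± 0.08, SE, adjusted p = 0.0112), and its 2 other features differed by -0.32 and -0.34. That call was lost after median centring, at -0.26 (adjusted p = 0.0815), while the smaller -0.22 after cyclic loess passed (adjusted p = 0.0393). With 1 ES-EP array left the call was lost as well, at -0.32 without culture A and -0.34 without culture B. Bag1, a co-chaperone that restrains the receptor, was 1.6-fold lower (-0.68 ± 0.08, SE, adjusted p = 0.000382). Hsd11b1, the enzyme that regenerates active glucocorticoid, was dim at 3.54 ± 0.07 in MEL against 3.86 ± 0.13 in the ES-EP cultures (SD, n = 2). The difference of -0.33 (adjusted p = 0.0242) did not pass under any of the other scalings, nor without ES-EP culture B (adjusted p = 0.196) or without MEL culture B (adjusted p = 0.0917).

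Of 12 measured coregulators 6 were higher and 2 lower, against 21.8% and 36.9% of all genes, with a median of 0.25, or 0.39 relative to all genes. The p160 coactivators, which receptors recruit to open chromatin, were higher in MEL. Ncoa3 was 2.6-fold higher (1.38 ± 0.09, SE, adjusted p = 2.13e-05), at 7.86 ± 0.08 against 6.49 ± 0.10 (SD, n = 2), and Ncoa1 was 2.21-fold higher. Crebbp, an acetyltransferase of the same complexes, was 1.41-fold lower (adjusted p = 0.00283). The counts of 6 and 2 were the same after each of the other scalings.

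A further list of 26 genes known to be induced by glucocorticoids in various tissues had 5 higher and 14 lower members. As shares these are 19.2% and 53.8%, against 21.8% and 36.9% of all genes, and the median was -0.34, or -0.20 relative to all genes. After quantile normalization and after cyclic loess the counts were 8 higher and 13 lower. Klf9, a repressor induced by steroid and thyroid hormones, was at 5.36 and 5.20 in MEL and at 7.73 and 7.69 in ES-EP cells, 5.4-fold lower in MEL (adjusted p = 1.17e-06). The MEL values lay below the array medians, so the fold is against a level not told from background. Hif3a, a regulator of the hypoxia response, was 3.89-fold lower, and the arrestin-like gene Arrdc2 was 2.47-fold lower. The MEL values of both lay less than 1 above the array medians.

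In the opposite direction, Cxcr4, the receptor of the chemokine CXCL12, was 10.9-fold higher in MEL, at 8.57 and 8.84 against 5.48 and 5.03. The small GTPase gene Rhob was 9.29-fold higher, at 7.62 ± 0.15 against 4.41 ± 0.05 (SD, n = 2). Angptl4, an inhibitor of lipoprotein lipase that also responds to hypoxia, was 3.74-fold higher, and the mTORC1 inhibitor gene Ddit4, which responds to hypoxia and stress as well, 2.13-fold higher. The ES-EP values of Cxcr4, Rhob and Angptl4 lay below the array medians, so their folds are against a level not told from background.

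Inflammatory genes that the receptor is known to restrain were mostly dim. Their median level was 4.70 to 4.80 on the 4 arrays, below the array medians. Of 15 genes 2 were higher and 5 lower, 13.3% and 33.3%, against 21.8% and 36.9% of all genes, with a median of -0.11. Those counts were 5 and 2 after quantile normalization and 6 and 3 after cyclic loess, where the median was 0.07 and 0.11, and the lower count was 3 without MEL culture B or ES-EP culture B. Icam1, an adhesion molecule, was 2.02-fold higher, at 7.65 ± 0.09 in MEL against 6.64 ± 0.14 in the ES-EP cultures (SD, n = 2, adjusted p = 0.000154). Ccl2, a monocyte chemokine, was 1.68-fold lower but at 4.03 and 4.78, below the array medians in both groups.

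**Figure D4:**
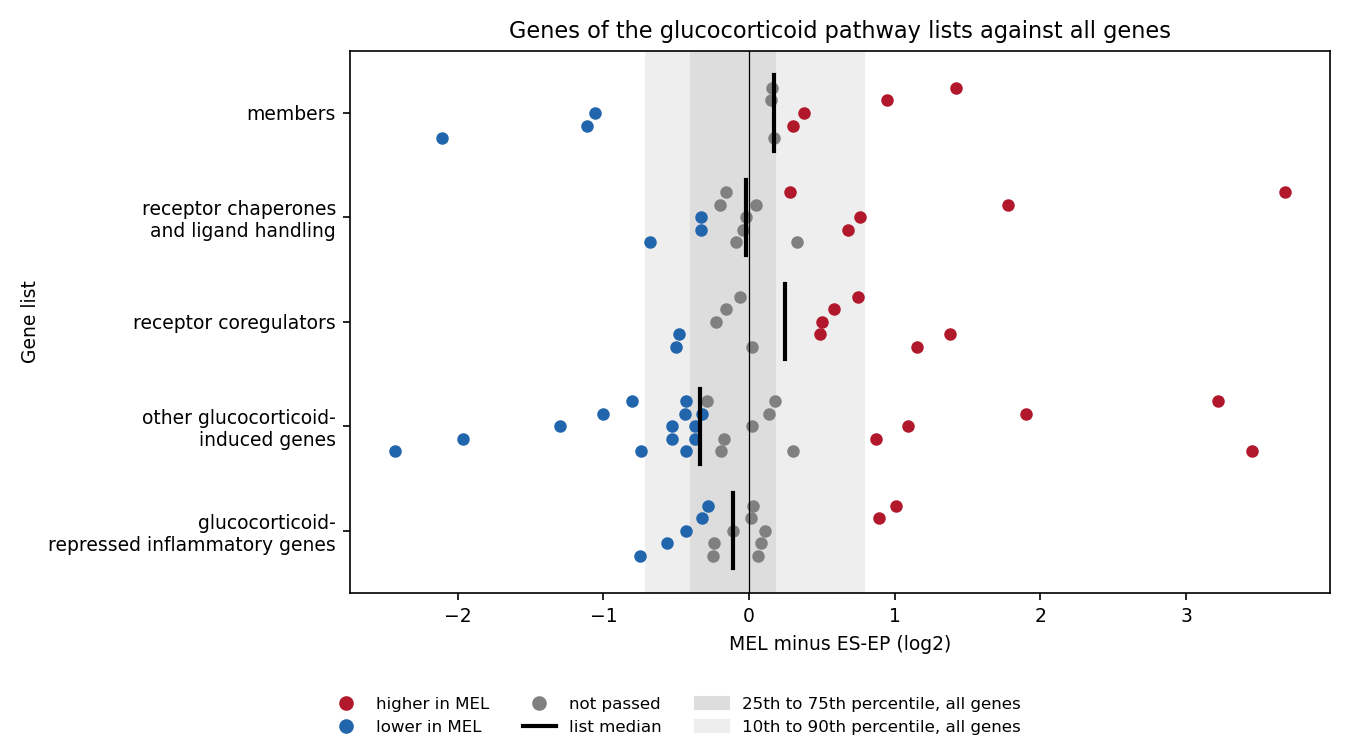
Each point is 1 gene at its difference of MEL minus ES-EP on the log2 scale (horizontal axis), for the 10 members and 4 lists, with red for higher in MEL, blue for lower, grey for not passed, and a bar at the list median. Grey bands mark the 25th to 75th percentile (-0.40 to 0.18) and the 10th to 90th percentile (-0.71 to 0.79) of all genes, and each list holds points beyond the wide band on at least 1 side.

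Markers of other cells differed between the groups too, but many were dim. The list medians of the mast cell, macrophage and pluripotency genes lay below the array medians on all 4 arrays, a level not told from background. Of 6 mast cell genes 5 were lower in MEL, against 36.9% of all genes, with list medians of 3.87 to 3.96 on the MEL arrays against 5.07 to 5.27 on the ES-EP arrays. Among them the IgE receptor chain gene Ms4a2, singled out for its value, was 11.5-fold lower, at 3.93 against 7.45. Its MEL level was not told from background. Of 8 macrophage genes 3 were lower, 37.5% and so near that share, with list medians of 4.33 to 4.47 against 4.93 to 4.96, and 2 passed as higher after quantile normalization or cyclic loess. Stromal genes had 1 higher and 4 lower of 8, and pluripotency genes 2 higher and 6 lower of 8, against 21.8% and 36.9% of all genes. The stromal lower count was 2 after quantile normalization and 1 after median centring or cyclic loess. For the pluripotency genes it was 4 after quantile normalization or cyclic loess. The part of such cells in the differences of Dusp1, Zfp36 and Tsc22d3 was not tested, and in these bulk cultures fewer cells of a type and less RNA per cell cannot be told apart.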

How the data were processed

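Per the labels, the authors made the deposited log2 values in GeneSpring GX with RMA, which corrects background, applies quantile normalization and summarises probes by feature. The submitters' processing notes name RMA too. That the scale is log2 follows from the range of the values. Which arrays were normalized together, and the software version, are not given in the sources used. RMA evens out the arrays, so a change in total RNA per cell cannot be seen, and dim features are compressed, which understates their fold changes.

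Of 35557 features, 6613 control features with consecutive numbers were left out. Genes were named from a platform annotation, updated by Entrez identifier through RefSeq (GRCm38.p6). A total of 21789 features had 1 symbol, 1621 several and 5534 none. Only features with 1 symbol were named, and the brightest feature stood for a gene with several.

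The comparison of MEL with ES-EP arrays used limma 3.58.1 under R 4.3.3 (lmFit, eBayes, 2 residual and 5.15 prior degrees of freedom), with Benjamini-Hochberg adjustment over 28944 features. An exact permutation test of 4 arrays cannot give a two-sided p under 0.333. The number of arrays limits the precision. The procedure was tested on simulated data with independent noise, where 200 of 28944 features were changed. Of these 98.5% were called in the right direction, and 28 unchanged features were called. Far fewer features changed there than were called here, so the simulation does not check the calls on these arrays.

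The 10 members, the 5 pathway lists (94 genes, 91 measured, 3 on more than 1 list) and the 5 marker lists were chosen with earlier results of these data known. Named beside the members are pathway list genes called at 2-fold, the largest called rise and fall of each pathway list, and 9 partners and relatives listed with the design, of which Hsp90ab1 was not analysed here. Tsc22d2, Tsc22d4, Per3, Dusp2, Dusp4, Dusp5 and Dusp16, which complete a family, were named after their values were seen. The markers Ms4a2, Slc4a1, Alas2, Gata1 and Epor were too. The letters A and B are not stated to pair cultures.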

Additional observations from a re-analysis of the deposited data

How the results depend on the processing

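Of 150 member values under alternatives 140 kept their direction and their side of the threshold. The count of members called was 4 with a 2-fold criterion in place of 7, and without single cultures it was 5 to 7, with 2 to 4 higher and 3 lower. Values that crossed the threshold or turned were 0.24 for Nr3c1 (cyclic loess), 0.24 and 0.28 for Fkbp5 (quantile, cyclic loess), 0.27 and 0.38 for Per1 (quantile, control features kept) and -0.01 for Zbtb16 (quantile). Without single cultures, in fits with 1 array left in a group, Per1 ranged from 0.26 to 0.49 and Sgk1 from 0.29 to 0.31. Lower calls over all features numbered 10827, but 7084 after cyclic loess and 5479 among features at or above the median signal. Among receptor partners the lower calls were 1 after median centring, 6 with an intensity trend and 1 to 3 without single cultures. Higher calls among other induced genes were 8 after quantile normalization and 8 after cyclic loess, against 5. Inflammatory genes had 5 higher and 2 lower calls after quantile normalization, 6 and 3 after cyclic loess, 3 lower after median centring, 1 and 0 among features at or above the median, 2 lower above the 25th percentile, and 3 to 7 lower without single cultures. Filters removed dim genes from the fit, and the cause of the other changes was not tested. Median centring gave limma adjusted p-values of another order, 2.01e-178 for Abcb1a against 3.84e-07 as deposited. Calls after median centring are therefore not directly comparable with those of the other fits. Of 399 values of the 27 named list genes 386 kept their call, 9 lost it and 4 turned, all of them Fkbp4, at 0.11, 0.02 and 0.07 under the other scalings and -0.10 to 0.01 without single cultures. With the replicate letter as a block 7 members were called, and the letters share 2 pairs only, too few to check the pairing. Signal near the array medians limits Sgk1, Zbtb16 and the inflammatory genes. It also limits Zfp36, Hif3a and Arrdc2 in MEL, and Errfi1, Ncoa3, Per3 and Dusp5 in ES-EP cells. Tsc22d3 in MEL, at 6.86 and 6.87, lay about 1 above these medians.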

Other observations

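The lettered cultures differed in a similar way in both systems for several members. Culture B was above culture A in 7 of 10 members in MEL, in 8 of 10 in ES-EP cells and in 6 of 10 in both. The shares of all features were 51.3% in MEL, 49.9% in ES-EP cells and 28.4% in both. The gaps of B minus A were 0.20 and 0.24 for Per1, 0.16 and 0.26 for Zfp36, 0.17 and 0.20 for Zfp36l2 and 0.16 and 0.11 for Dusp1, in MEL and ES-EP cells. Of the same sign but less alike or very small were the gaps of Errfi1 (0.27 and 0.03) and Tsc22d3 (0.01 and 0.02). The gaps had opposite signs for Nr3c1 (-0.05 and 0.02), Fkbp5 (-0.02 and 0.12) and Zbtb16 (0.08 and -0.21). The median size of the B minus A gap over all features was 0.11 in MEL and 0.08 in ES-EP cells, and its 90th percentile was 0.30 and 0.23. Across all features the B minus A gaps of both systems correlated with r = 0.11, and features are not independent replicates. The genes named here were picked after their values were seen, and no test was made.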
